A study of Mus musculus with 16 samples.

Results

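Endothelial and blood-brain barrier genes were followed across the 4 groups of mice of a hippocampal RNA-sequencing experiment. The 10 genes were taken by name from the table of read counts: Cldn5, Cdh5, Pecam1, Slc2a1, Mfsd2a, Abcb1a, Flt1, Sox17, Ly6c1 and Rgcc. All 10 were found among the 55335 genes of the table, and all 10 were among the 16475 genes left after genes with low counts were removed. The genes were selected on results from these same counts, and which values were used is not recorded, so every comparison below counts as used and each p-value only describes where a gene lay in a fit across all genes. Rgcc stood apart from the rest. It was lower in 3xTg than in WT mice under the inhibitor, at 0.470 times the WT level, and its correlation with the mean of the other members was the lowest of the 10. No other member was called in the comparisons as designed, although Abcb1a, Flt1 and Slc2a1 were each called under another setting, as given below.

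The blood-brain barrier is formed by the endothelial cells of brain capillaries, which seal the gaps between themselves with tight and adherens junctions, keep vesicle traffic low and carry nutrients through dedicated transporters. Wnt ligands from neural cells, acting through beta-catenin in the endothelium, switch this program on and maintain it, and pericytes and astrocyte endfeet support it from outside. Endothelial cells are a small part of all cells in the hippocampus, so their transcripts are a small part of a bulk library.

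Each of the 4 groups held 4 female mice aged 10 months, and the RNA of a library came from the whole hippocampus of a single mouse. WT-D and WT-S were wild-type mice of the strain labelled C57BL/6J x 129S1, and 3xTg-D and 3xTg-S were mice of a triple transgenic Alzheimer's disease model that carries human APPSwe and tauP301L transgenes. All groups carried an osmotic pump that infused artificial cerebrospinal fluid with 0.8% DMSO into the ventricle for 28 days. The fluid held 80 µM CAY10566, an inhibitor of stearoyl-CoA desaturase, in WT-S and 3xTg-S, and no inhibitor in WT-D and 3xTg-D. The transgenes are driven by the neuronal Thy1.2 element. One label field names another product for the inhibitor. Whether the vessels were flushed of blood before dissection was not stated. The inhibitor was given into the ventricle and not into the blood, and how it reached the endothelium is not shown by these data.

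The mice had between 15413385 and 23590149 reads on genes. Thy1, whose element drives the transgenes, separated the genotypes as labelled, with means of 549 ± 25.6 and 570 ± 42.2 (SD, n = 4) CPM in WT-D and WT-S and of 1885 ± 122 and 1843 ± 239 CPM in 3xTg-D and 3xTg-S. CPM is a gene's count per megaread on genes, with library sizes scaled by the TMM method. Summed markers of other cells set 5 mice apart. Choroid plexus markers summed to 746 CPM in WT-D4 and 299 CPM in WT-S1 against 28.1 to 62.0 CPM elsewhere, red cell markers to 126 CPM in 3xTg-S1 and 119 CPM in 3xTg-S2 against 15.7 to 75.4 CPM, and leukocyte markers to 34.2 CPM in WT-D1 against 6.06 to 15.3 CPM. The share of uniquely mapped reads outside genes ranged from 7.82% to 15.1%, a range that 3xTg-S spanned alone.

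The promoters of Cldn5 and Flt1, from the genes that varied together, and of Rgcc, which did not, are shown as the 250 bases before the RefSeq start site (build GRCm38.p6), 5′ to 3′ on the gene's strand. Capitals mark CACCC or its complement GGGTG, the core bound by Krüppel-like factors. The window lies at chr16:18776597-18776846 on the + strand for Cldn5, at chr5:147726012-147726261 on the - strand for Flt1 and at chr14:79301636-79301885 on the - strand for Rgcc.
Cldn5: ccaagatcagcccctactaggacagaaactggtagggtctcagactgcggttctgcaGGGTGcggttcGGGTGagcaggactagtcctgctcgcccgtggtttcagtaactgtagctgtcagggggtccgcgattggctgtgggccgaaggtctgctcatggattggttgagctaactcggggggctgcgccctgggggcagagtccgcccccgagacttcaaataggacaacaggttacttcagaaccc
Flt1: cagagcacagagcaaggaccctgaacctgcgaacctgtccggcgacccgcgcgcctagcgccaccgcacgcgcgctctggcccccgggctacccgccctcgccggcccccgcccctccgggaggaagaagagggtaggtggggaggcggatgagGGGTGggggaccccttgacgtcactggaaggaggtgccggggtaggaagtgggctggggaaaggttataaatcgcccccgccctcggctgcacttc
Rgcc: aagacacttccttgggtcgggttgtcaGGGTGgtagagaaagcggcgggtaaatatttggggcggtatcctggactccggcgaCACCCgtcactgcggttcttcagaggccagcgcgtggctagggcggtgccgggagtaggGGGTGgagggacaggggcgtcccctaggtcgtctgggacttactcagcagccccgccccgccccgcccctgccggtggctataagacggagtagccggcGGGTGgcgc
The core occurred at 2 places in the Cldn5 window, at 1 in Flt1 and at 4 in Rgcc. RefSeq promoters were at hand for 7 of the 10 genes, and 6 of them (Abcb1a, Cldn5, Flt1, Ly6c1, Rgcc and Slc2a1) held CACCC on either strand, as did 52.0% of all 32851 promoters searched over the same length. Mfsd2a alone held CAGGTG, an E-box, which 17.2% of all promoters held. None of the 7 held CCGGAA, an ETS core found in 12.03% of all promoters, or AACAAT, a SOX core found in 9.42%. Both strands were searched, and a match of letters is not a site of binding.

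In the annotation of build GRCm38, the junction genes Cldn5, Cdh5 and Pecam1 lie at chr16:18776847-18778262, chr8:104101625-104144511 and chr11:106654217-106750628. The transporters Slc2a1 and Mfsd2a lie on the same chromosome, at chr4:119108711-119137983 and chr4:122946850-122961188, and Abcb1a and Flt1 share another, at chr5:8660077-8748575 and chr5:147561604-147726011. Sox17 lies at chr1:4490931-4497354, Ly6c1 at chr15:75044018-75048830 and Rgcc at chr14:79288756-79301645. Reads were counted over the exons of each gene. Exon lengths and exon overlaps were taken here from an earlier Gencode release than the one used for counting.

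The 10 genes ranged widely in level. Per kilobase of exon, a scale on which genes can be compared, the median over the 16 mice was highest for Rgcc, a regulator of the cell cycle that responds to complement, at 19.6 CPM per kb. It was lowest for Sox17, a transcription factor of arterial endothelium, at 0.806 CPM per kb. Slc2a1, which encodes the glucose transporter GLUT1, followed Rgcc at 17.2 CPM per kb. Rgcc exceeded Slc2a1 in 8 of 16 mice: every WT mouse but WT-D3 and, of the 3xTg mice, 3xTg-D2 alone. The order of these neighbours thus differed between the genotypes, and the median over all mice does not show it.

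Mfsd2a, a lysophospholipid transporter that carries omega-3 fatty acids into the brain and restrains vesicle traffic, had a median of 9.45 CPM per kb. Cldn5, the main claudin of the tight junctions of brain endothelium, was at 9.07 CPM per kb, and Ly6c1, a surface antigen of mouse brain endothelium, at 8.36. These neighbours overlapped too, with Mfsd2a above Cldn5 in 10 of 16 mice and Cldn5 above Ly6c1 in 9 of 16. Abcb1a, which encodes the efflux pump P-glycoprotein, had 4.99 CPM per kb, and Flt1, a receptor of vascular endothelial growth factor (VEGF), had 4.06. Abcb1a was the higher in 16 of 16 mice, although the ranges over mice overlapped. Pecam1, an adhesion molecule of endothelial junctions, was at 2.17 CPM per kb and Cdh5, the cadherin of endothelial adherens junctions, at 2.01, with Pecam1 the higher in 15 of 16 mice.

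**Figure D1:**
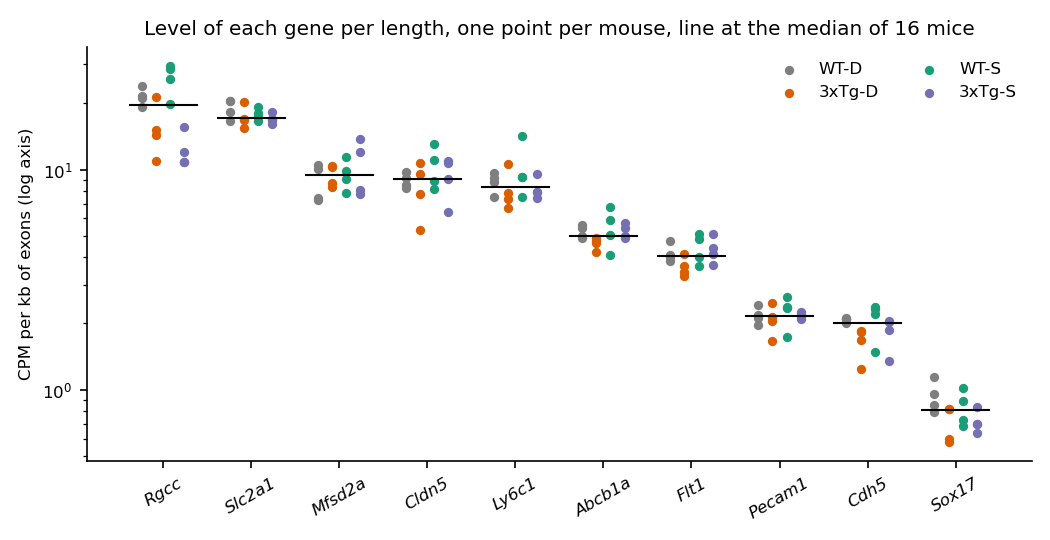
Level of each of the 10 genes in CPM per kilobase of exons (log axis), with a point for each of the 16 mice coloured by group and a line at the median. The medians fall from 19.6 for Rgcc to 0.806 for Sox17.

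In counts, the members ran from 51 reads for Sox17 in 3xTg-S1 to 1688 for Slc2a1 in 3xTg-D2. Abcb1a and Ly6c1 have a close paralog that can share reads. Abcb1b, another P-glycoprotein gene, had group means of 5.19 to 5.82 CPM and was called in no comparison. Ly6c2, an antigen of blood monocytes, had at most 7 reads in 15 mice and 33 reads in WT-D1, the mouse with the most leukocyte marker reads, beside 350 reads of Ly6c1. Exons of Slc2a1, Abcb1a and Sox17 overlap genes on the opposite strand that had at most 5 reads in any mouse.

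As a check of the label, the members were correlated over the 16 mice after each group's mean was taken off (log2 CPM). Of the 36 pairs without Rgcc, 34 had a correlation above 0, with a median Pearson r of 0.54 and a range of -0.13 to 0.84. The closest were Abcb1a with Pecam1 (r = 0.84) and Slc2a1 with Ly6c1 (r = 0.83), and both pairs below 0 involved Mfsd2a. These correlations are a description, since the points share library, depth and tissue make-up.

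Rgcc followed the others least. Its 9 pairs had a median r of 0.14, from -0.31 with Cdh5 to 0.52 with Mfsd2a. Against the mean of the 9 other members r was 0.17, at rank 4503 of the genes tested, while Ly6c1 and Pecam1 were at ranks 2 and 4 against the mean of their own 9 others. By this measure the label fitted Rgcc least, and Mfsd2a came next, with r = 0.38 at rank 1560.

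**Figure D2:**
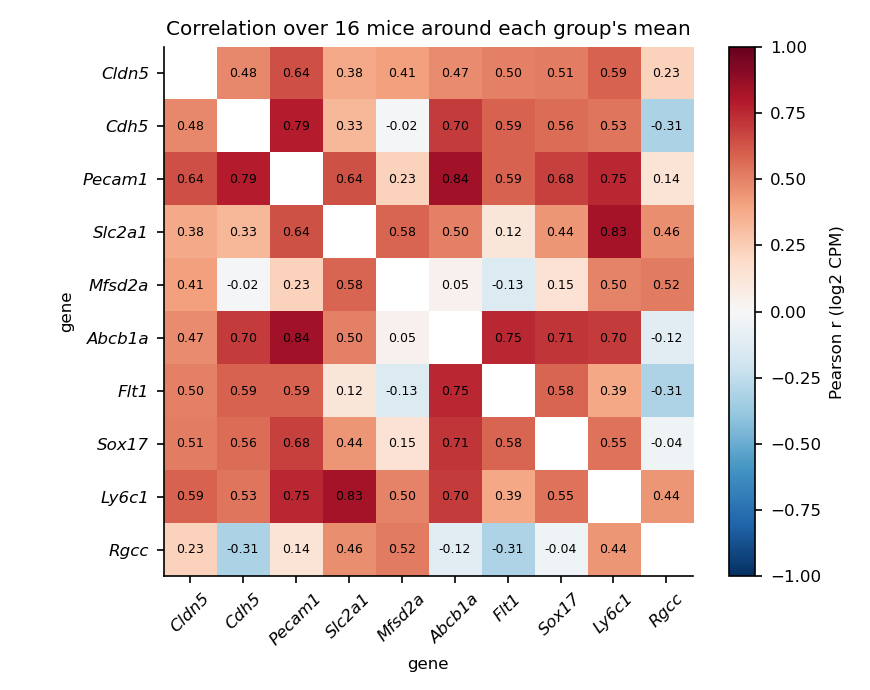
Pearson correlation between each pair of the 10 genes over 16 mice, computed on log2 CPM after each group's mean was taken off, from blue (below 0) to red (above 0). The Rgcc row holds 4 values below 0, down to -0.31, and Mfsd2a takes part in the other 2 values below 0.

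The genes outside the members that were most like the members' mean over the 16 mice were Prom1 (r = 0.87), Fmo2 (r = 0.87), Azi2 (r = 0.86), Atp10a (r = 0.85) and St8sia4 (r = 0.83). Adgrl4, an adhesion receptor of endothelium, had r = 0.83 and Edn1, which encodes the vasoconstrictor endothelin 1, had r = 0.80. The genes most like Rgcc were Pde6d (r = 0.95), Ttyh1 (r = 0.95), Bloc1s4 (r = 0.94), Rps14 (r = 0.94) and Tpt1 (r = 0.93). Over lists of genes, the median r with Rgcc was 0.73 for 8 genes of astrocyte endfeet, 0.68 for 10 microglia markers and -0.81 for 9 genes of the vascular basement membrane. The same lists had medians of 0.17, 0.05 and 0.04 with the mean of the other 9 members. For 112 genes of ribosomal proteins, a list added after the values were seen, the medians were 0.63 with Rgcc and 0.10 with the other members.

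Rgcc also moved with a measure of the libraries. Around the group means, Rgcc was lower where the share of reads outside genes was higher (Pearson r = -0.74, permutation p = 0.0017, and Spearman rho = -0.71, permutation p = 0.0083, over 16 mice with permutations within groups). Adjusted over the 10 relations computed, 1 for each member, the permutation p was 0.017 for r and 0.083 for rho. Without 3xTg-S2 and 3xTg-S4, the mice farthest out in that share, r was -0.74. Mfsd2a came next, with r = -0.60 and rho = -0.63 (permutation p = 0.059 and 0.029, adjusted permutation p = 0.29 and 0.14). As the members were selected on these same counts, these permutation p-values are descriptions only. How common such a correlation was among all genes is not given here. Comparisons of Rgcc are given also from a fit with this share as a covariate.

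Each comparison below was fitted by edgeR's quasi-likelihood test over all genes that passed the filter, on the mice of the groups concerned. A gene counted as called where its unadjusted p was at most 0.01, and adjusted p-values were computed over all genes by Benjamini and Hochberg's method. Shares of all genes are from these fits. Counts called by DESeq2 or under another setting stand without the share of all genes called there. In bulk tissue, fewer endothelial cells and less RNA per endothelial cell cannot be told apart. The comparisons share groups of mice and are not independent of each other. Fits without the mice apart in marker sums left out those of the compared groups only. WT-D then kept WT-D2 and WT-D3, 3xTg-S kept 3xTg-S3 and 3xTg-S4, WT-S lost WT-S1, and 3xTg-D lost none. Such fits hold fewer mice, so a call lost in them cannot be traced to the mice left out.

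**Figure D3:**
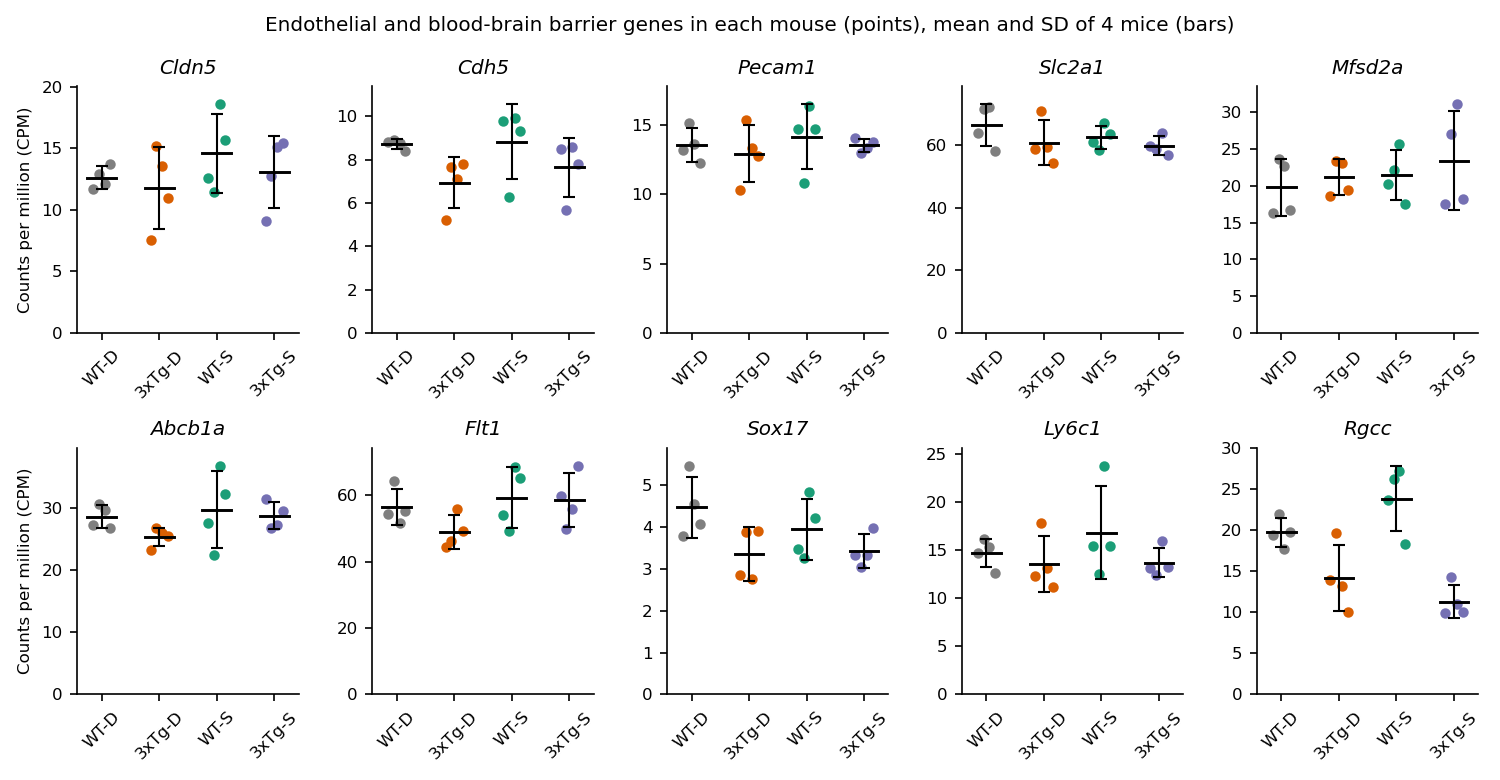
CPM of each of the 10 genes in each of the 16 mice (points), with the mean and SD of the 4 mice of a group in black and the axis from 0. All 4 Rgcc points of 3xTg-S (9.93 to 14.3 CPM) lie below those of WT-S (18.3 to 27.2 CPM).

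Under vehicle, the comparison of 3xTg-D with WT-D asked which genes differed with the genotype. Of the 10 members, 9 were lower in 3xTg-D and Mfsd2a was higher, but edgeR called 0 of 10, against 4.91% of all genes, and none passed an adjusted p of 0.05, against 1.85%. At an unadjusted p under 0.05 there were 5, all lower (Abcb1a, Cdh5, Flt1, Sox17 and Rgcc), against 12.6% of all genes in either direction. DESeq2 called 1, Rgcc. The median log2 fold change of the members was -0.15, while that of all genes was -4.27e-05.

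Among the junction genes, Cdh5 was at 8.82, 8.92, 8.80 and 8.42 CPM in WT-D and at 5.21, 7.67, 7.10 and 7.79 CPM in 3xTg-D. All 4 mice of 3xTg-D lay below all 4 of WT-D, and 3xTg-D1 lay lowest. The log2 fold change was -0.33 ± 0.13 (SE; edgeR adjusted p = 0.33), and it was -0.21 without 3xTg-D1. With Abcb1a, 2 of 10 members had groups that did not overlap and were lower in 3xTg-D, a separation that 3.78% of all genes showed.

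Abcb1a was at 27.3, 30.7, 29.7 and 26.8 CPM in WT-D and at 23.2, 26.8, 25.98 and 25.5 CPM in 3xTg-D. The highest mouse of 3xTg-D, at 26.77 CPM, lay just under the lowest of WT-D, at 26.83 CPM. The log2 fold change was -0.17 ± 0.07 (edgeR adjusted p = 0.33). With the share of reads outside genes as a covariate it was -0.24 and was called (adjusted p = 0.19).

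Flt1 was at 54.4, 64.3, 51.6 and 55.3 CPM in WT-D and at 44.4, 46.2, 55.8 and 49.2 CPM in 3xTg-D. Of the 3xTg-D mice, 3xTg-D3 alone reached into the WT-D range. The log2 fold change was -0.20 ± 0.09 (edgeR adjusted p = 0.36), and without 3xTg-D3 it was -0.28 and was called (adjusted p = 0.24). Without WT-D2 it was -0.14.

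Sox17 was at 3.80, 5.47, 4.55 and 4.08 CPM in WT-D and at 2.85, 3.90, 2.76 and 3.92 CPM in 3xTg-D. The groups overlapped, as 2 mice of 3xTg-D lay above the lowest mouse of WT-D. The log2 fold change of -0.41 ± 0.17 (edgeR adjusted p = 0.36) rested on 52 to 114 reads per mouse.

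Rgcc was at 19.4, 22.0, 17.7 and 19.8 CPM in WT-D and at 13.9, 19.7, 13.2 and 10.1 CPM in 3xTg-D. The groups overlapped through 3xTg-D2, while the other mice of 3xTg-D lay below all of WT-D. The log2 fold change was -0.46 ± 0.17 (edgeR adjusted p = 0.28). Without 3xTg-D2 it was -0.67 (adjusted p = 0.020), and with the share of reads outside genes as a covariate -0.69 (adjusted p = 0.070), and both were called. In 3xTg-D2, summed microglia markers were 898 CPM against 381 to 736 CPM in the other mice, and summed endfoot genes 2613 CPM against 1389 to 1826 CPM, and their part in its Rgcc level was not tested.

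The remaining 5 members gave smaller differences. Slc2a1 averaged 66.3 ± 6.69 CPM (SD, n = 4) in WT-D against 60.7 ± 7.05 CPM in 3xTg-D, with a log2 fold change of -0.12 (95% interval -0.33 to 0.09). Cldn5, Pecam1 and Ly6c1 had log2 fold changes of -0.09, -0.06 and -0.11, and the interval of Cldn5 reached from -0.49 to 0.32. Ly6c1 was at -0.27 without 3xTg-D2, at -0.03 without 3xTg-D4 and at -0.33 with the share of reads outside genes as a covariate. Mfsd2a had 0.10 (95% interval -0.20 to 0.40), and -0.13 without the mice apart in marker sums.

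Under the inhibitor, the genotype difference between 3xTg-S and WT-S again had 9 of the 10 members on the lower side and Mfsd2a on the higher. Rgcc was called as lower, 1 of 10 members against 2.47% of all genes called lower and 4.26% called in either direction. It was the only member past an adjusted p of 0.05, against 1.4% of all genes, and the only member at an unadjusted p under 0.05, against 10.7%. The members' median log2 fold change was -0.12, beside 0.0019 for all genes.

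Rgcc was at 23.7, 26.2, 27.2 and 18.3 CPM in WT-S and at 9.93, 14.3, 11.03 and 9.98 CPM in 3xTg-S. The highest mouse of 3xTg-S lay below the lowest of WT-S, and no other member had groups that did not overlap, a separation towards lower values that 3.53% of all genes showed. The log2 fold change was -1.09 ± 0.16 (SE; 95% interval -1.43 to -0.74, edgeR adjusted p = 0.0059). With each mouse left out in turn it lay between -1.23 and -1.02 (adjusted p from 0.0010 to 0.030). Without WT-S1, 3xTg-S1 and 3xTg-S2, the mice of these groups apart in marker sums, it was -1.20 (adjusted p = 0.049). It was -0.96 with the share of reads outside genes as a covariate (adjusted p = 7.4e-05).

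Among the other members, Ly6c1 had the lowest value, a log2 fold change of -0.31 ± 0.18 (edgeR adjusted p = 0.60). Its level was 15.5, 12.6, 23.8 and 15.5 CPM in WT-S and 13.2, 12.5, 15.97 and 13.3 CPM in 3xTg-S. The groups overlapped, WT-S3 was the only mouse of WT-S above all of 3xTg-S, and without it the log2 fold change was -0.10. Cdh5 and Sox17 had log2 fold changes of -0.23 ± 0.18 and -0.22 ± 0.17 (adjusted p = 0.70 for each). Cdh5 was at -0.37 without WT-S2 and at -0.11 without 3xTg-S2, and Sox17 at -0.31 without WT-S2 and at -0.11 without WT-S3. Cldn5 and Pecam1 had -0.17 and -0.08, Slc2a1 and Abcb1a had -0.08 and -0.06, and Flt1 had -0.03 (95% interval -0.30 to 0.24).

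**Figure D4:**
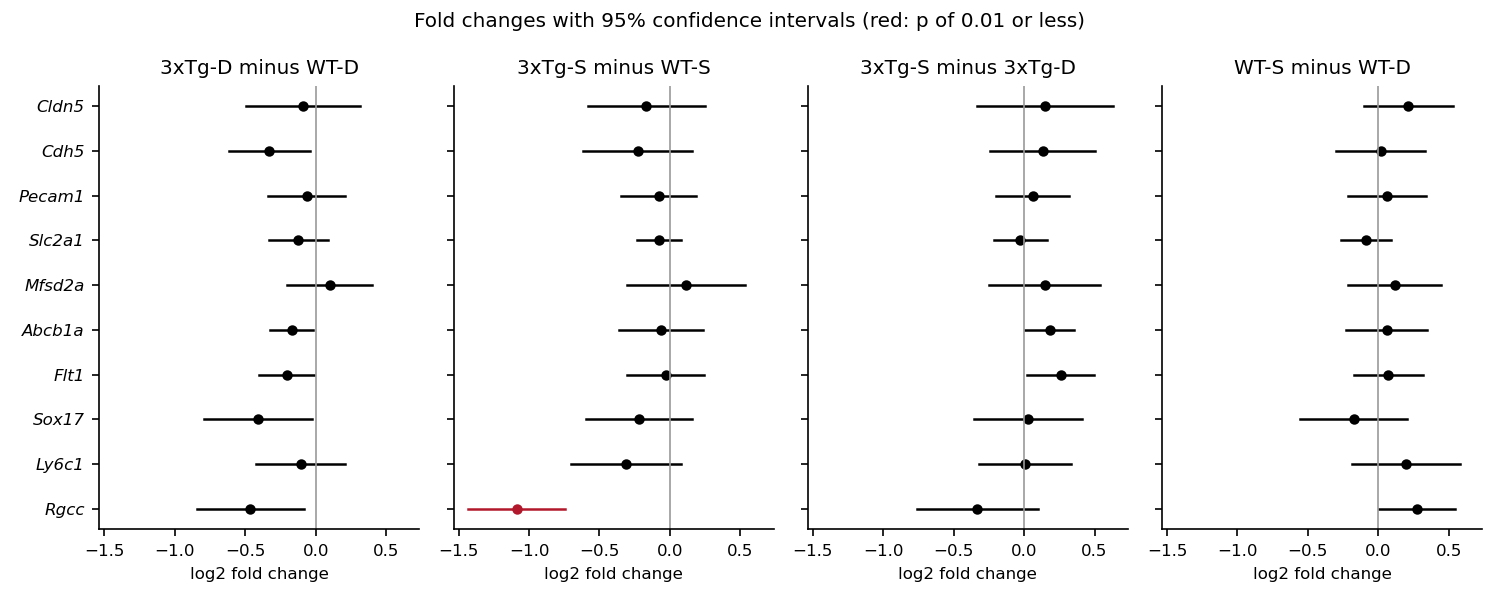
Log2 fold change (x axis) of each of the 10 genes in 4 comparisons with the 95% confidence interval of the edgeR fit, red where the unadjusted p was 0.01 or less. Rgcc under the inhibitor, at -1.09, is the single red point, and the 9 genes other than Rgcc lie between -0.41 and 0.26 over the 4 panels.

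In 3xTg mice, the comparison of 3xTg-S with 3xTg-D asked which genes differed with the inhibitor in the disease model. Of the 10 members, 8 were above 0 and 2 below, and edgeR called 0, against 0.904% of all genes. At an unadjusted p under 0.05 there were 2, Abcb1a and Flt1, both higher, against 6.33% of all genes in either direction, and DESeq2 called 0. The median log2 fold change was 0.10, beside 0.0069 for all genes.

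Abcb1a, at 23.2, 26.8, 25.98 and 25.5 CPM in 3xTg-D, was at 31.5, 26.8, 27.4 and 29.6 CPM in 3xTg-S. The groups did not overlap, although 3xTg-S2 at 26.83 CPM lay just above 3xTg-D2 at 26.77 CPM. This held for 1 of 10 members in the higher direction, against 1.4% of all genes. The log2 fold change was 0.18 ± 0.08 (edgeR adjusted p = 0.72). The mean of 28.8 ± 2.14 CPM in 3xTg-S stood beside 28.6 ± 1.87 CPM in WT-D, with a 95% interval of the log2 difference of -0.17 to 0.16.

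Flt1, at 44.4, 46.2, 55.8 and 49.2 CPM in 3xTg-D, was at 59.7, 49.8, 55.8 and 68.9 CPM in 3xTg-S. The groups overlapped through 3xTg-D3. The log2 fold change was 0.26 ± 0.11 (edgeR adjusted p = 0.72). Without 3xTg-S2 it was 0.33 and was called (adjusted p = 0.20), while without 3xTg-S4 it was 0.16. The mean was 58.5 ± 8.01 CPM in 3xTg-S and 56.4 ± 5.49 CPM in WT-D, with a 95% interval of the log2 difference of -0.19 to 0.26.

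Rgcc lay on the other side of 0, with a log2 fold change of -0.33 ± 0.19 in 3xTg mice (edgeR adjusted p = 0.72). Its ranges overlapped, at 10.1 to 19.7 CPM in 3xTg-D and 9.93 to 14.3 CPM in 3xTg-S, and the value was -0.14 without 3xTg-D2 and -0.17 with the share of reads outside genes as a covariate. The other 7 members had log2 fold changes of -0.03 (Slc2a1) to 0.15 (Cldn5 and Mfsd2a). Mfsd2a was at 17.5, 27.0, 31.1 and 18.2 CPM in 3xTg-S, and its 95% interval ran from -0.25 to 0.54.

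In WT mice, the inhibitor comparison of WT-S with WT-D had 8 members above 0 and 2 below, and edgeR called 0, against 0.188% of all genes. At an unadjusted p under 0.05 there was 1, Rgcc, against 2.25% of all genes, and DESeq2 called 0. The median of the members was 0.07, beside -7.79e-05 for all genes. Rgcc averaged 19.7 ± 1.78 CPM in WT-D and 23.9 ± 3.99 CPM (SD, n = 4) in WT-S, with a log2 fold change of 0.28 ± 0.12 (edgeR adjusted p = 1.00). WT-S4, at 18.3 CPM, was the mouse of WT-S inside the WT-D range, and without it the value was 0.39 and was called (adjusted p = 0.27). With the share of reads outside genes as a covariate it was 0.16.

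The other 9 members had log2 fold changes of -0.18 (Sox17) to 0.21 (Cldn5) in WT mice, and their 95% intervals stayed between -0.56 and 0.58. Abcb1a ranged from 22.4 to 36.9 CPM in WT-S against 26.8 to 30.7 CPM in WT-D, and Cdh5 from 6.26 to 9.94 CPM against 8.42 to 8.92 CPM. WT-S3 was the highest mouse of WT-S for all 10 members. WT-S2 was the lowest for 8 of them, the exceptions being Rgcc and Mfsd2a.

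Whether the difference with the inhibitor depended on the genotype was fitted as an interaction over the 16 mice. edgeR called 0 of the 10 members, against 0.595% of all genes. At an unadjusted p under 0.05 there was 1, Rgcc, against 4.98% of all genes, and DESeq2 called 0. The interaction of Rgcc was -0.61 ± 0.25 on the log2 scale (edgeR adjusted p = 0.79). It was called without 3xTg-D4 (-0.75), without 3xTg-S2 (-0.76) and without WT-S4 (-0.73), and was -0.34, not called, with the share of reads outside genes as a covariate. The other 9 members lay between -0.19 and 0.20.

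Set against WT-D, inhibitor-treated 3xTg mice had 7 members below 0 and 3 above. Rgcc was called as lower, 1 of 10 members against 3.43% of all genes called lower and 5.69% called in either direction, at a log2 fold change of -0.82 ± 0.13 (edgeR adjusted p = 0.011). It was the only member past an adjusted p of 0.05, against 1.58% of all genes, and with Sox17 (-0.40) 2 members were at an unadjusted p under 0.05, against 13.1%. The Rgcc groups did not overlap, with 17.7 to 22.0 CPM in WT-D against 9.93 to 14.3 CPM in 3xTg-S, a separation that 4.42% of all genes showed in that direction. Leaving out each mouse gave -0.95 to -0.76, and the covariate fit gave -0.79 (adjusted p = 0.00056). Without WT-D1, WT-D4, 3xTg-S1 and 3xTg-S2, the mice of these groups apart in marker sums, Slc2a1 was called too (-0.27, adjusted p = 0.068).

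The other genes of endothelium and barrier were 105 genes in 8 lists, of which 102 were tested. The lists were made by name, and which cells of the bulk tissue their reads came from was not tested. Around the group means, their median r with the 9 members other than Rgcc ran from 0.16 for transporters to 0.45 for transcription factors. Over all genes it was 0.02. Fibroblast markers and pericyte and smooth muscle markers had 0.37 and 0.35, within the range of the endothelial lists, so the measure did not set those lists apart from other vascular cells. Under vehicle, 8 of the 102 were called as lower in 3xTg-D and 0 as higher, against 2.47% and 2.44% of all genes, and 75 lay below 0. The median log2 fold change of the 102 was -0.12, beside -0.15 for the members. The calls were Cd34 and Itm2a of the junction and surface genes, Slc38a5 and Slc16a1 of the transporters, Robo4 and Ptprb of the receptors, the Wnt target Axin2, and Vwf of the arterial and venous genes. Ligands, transcription factors, and genes of vesicles and activation held none by edgeR or DESeq2, with 1, 0 and 2 genes at an unadjusted p under 0.05.

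Slc38a5, a transporter of glutamine and other neutral amino acids, had the lowest fold change of the 8. It was at 1.39, 1.63, 1.35 and 1.63 CPM in WT-D and at 0.878, 0.461, 0.424 and 0.436 CPM in 3xTg-D. The groups did not overlap, and the log2 fold change was -1.45 ± 0.27 (edgeR adjusted p = 0.021). Slc38a5 was scarce: 3xTg-D2, 3xTg-D3 and 3xTg-D4 lay under 0.5 CPM, near the floor set by the filter on low counts. The gene passed that filter through the other groups, so its call is a description only. Under the inhibitor it was -1.15 ± 0.37 (adjusted p = 0.22), a call that was lost without WT-S1, WT-S2, WT-S4, 3xTg-S2, 3xTg-S3 or 3xTg-S4, and without the mice apart in marker sums.

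Vwf, the von Willebrand factor of larger vessels, was at 21.4, 19.9, 22.9 and 12.04 CPM in WT-D and at 9.22, 10.7, 9.86 and 12.6 CPM in 3xTg-D. WT-D4 alone fell into the range of 3xTg-D. The log2 fold change was -0.85 ± 0.18 (edgeR adjusted p = 0.049), and the call was lost with all 16 mice in one fit (-0.85, adjusted p = 0.24). Under the inhibitor the genotype difference was -0.0065 ± 0.33 (adjusted p = 1.00), with 6.47 to 19.6 CPM in WT-S, and the interaction was 0.85 ± 0.42 (adjusted p = 0.79).

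Cd34, a sialomucin of capillary endothelium, was lower without overlap, at 45.5 to 53.7 CPM in WT-D against 38.9 to 40.9 CPM in 3xTg-D (log2 fold change -0.29 ± 0.06, edgeR adjusted p = 0.051), but its call was lost without the mice apart in marker sums (-0.20, adjusted p = 0.38). Slc16a1, the lactate and ketone transporter MCT1, was called as lower in both genotype comparisons, at -0.30 under vehicle, lost without 3xTg-D1 or 3xTg-D4 and without the mice apart (-0.23), and at -0.43 under the inhibitor. Robo4, a guidance receptor of endothelium, was at 3.26 to 4.25 CPM in WT-D against 2.49 to 2.83 CPM in 3xTg-D (-0.50 ± 0.13, adjusted p = 0.12), a call lost without 3xTg-D3, WT-D2 or WT-D3 and with all 16 mice in one fit. Itm2a, Ptprb and Axin2 had -0.29, -0.35 and -0.28, and each lost its call without any 1 of 6 mice. The number called of the 102 was 4 without 3xTg-D1, 5 without 3xTg-D3 or WT-D2, and 17 with the share of reads outside genes as a covariate. The share of all genes called in those fits is not given here, so these numbers do not show a change particular to these genes.

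Under the inhibitor, 6 of the 102 were called as lower in 3xTg-S and 1 as higher, against 2.47% and 1.79% of all genes. Of the 102, 80 lay below 0, against 49.6% of all genes, with a median of -0.14. At an unadjusted p under 0.05 there were 17, against 10.7% of all genes. Transporters held 4 of the 6: Tfrc, the transferrin receptor (-0.42 ± 0.10, adjusted p = 0.089), Slc40a1, the iron exporter ferroportin (-0.50 ± 0.12, adjusted p = 0.092), Slc16a1 and Slc38a5. The groups of Tfrc, Slc40a1 and Slc16a1 did not overlap, and these calls held with each mouse left out. The call of Tfrc was lost with all 16 mice in one fit (-0.41), and that of Slc40a1 without the mice apart in marker sums (-0.37). The others were Itm2a, at -0.49, lost without 3xTg-S3, WT-S1 or WT-S3, and the Wnt target Apcdd1, at -0.36. Wnt7a, a ligand of the barrier program that comes from neural cells, was higher, at 13.5 to 15.97 CPM in 3xTg-S against 10.6 to 12.3 CPM in WT-S (0.36 ± 0.10, adjusted p = 0.12), lost without 3xTg-S4 or without the mice apart. None of the 7 passed an adjusted p of 0.05. The number called was 4 without the mice apart in marker sums.

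**Figure D5:**
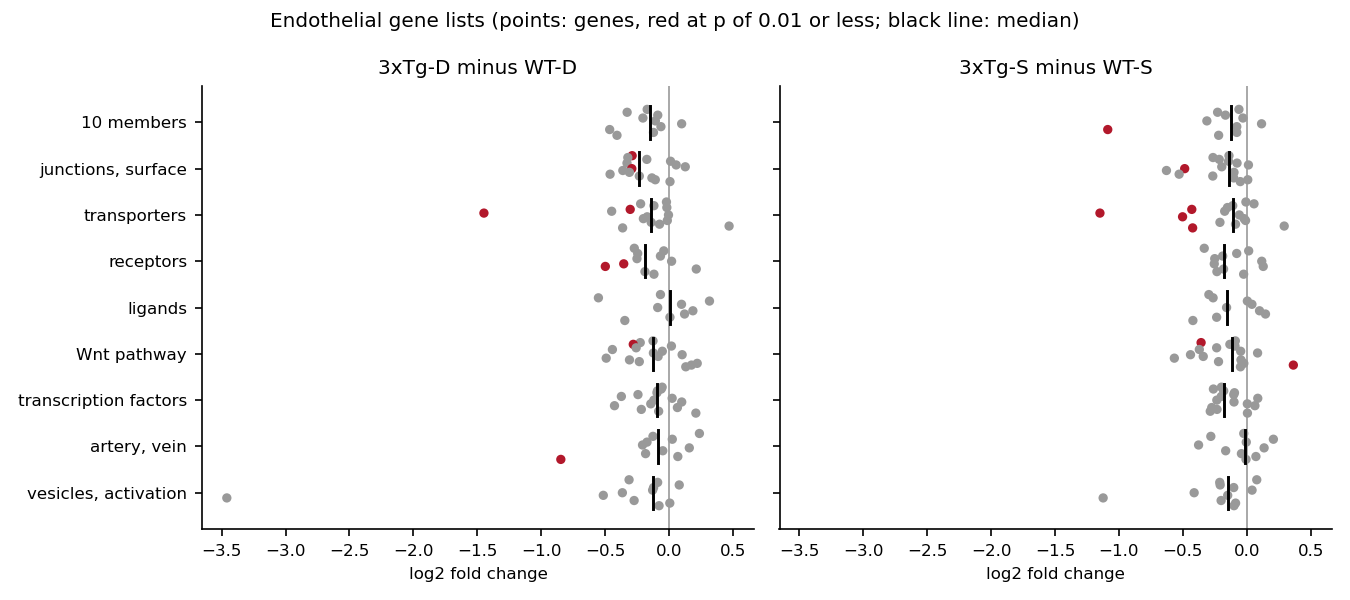
Log2 fold change (x axis) of the genes of each list in 3xTg-D against WT-D and 3xTg-S against WT-S, with a point per gene, red where the unadjusted p was 0.01 or less, and a black line at the median. Slc38a5 is the transporter farthest to the left in both panels (-1.45 and -1.15), and Rgcc the member farthest to the left under the inhibitor.

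For the inhibitor itself, edgeR called 1 of the 102 in 3xTg mice, Robo4, which was higher (0.50 ± 0.15, adjusted p = 0.72) at 3.27 to 4.49 CPM against 2.49 to 2.83 CPM, where 0.279% of all genes were called higher. That call was lost without any 1 of 3xTg-D1, 3xTg-D2, 3xTg-D3, 3xTg-D4, 3xTg-S3 and 3xTg-S4, and without 3xTg-S2 the number called was 4. In WT mice edgeR and DESeq2 called 0 of the 102, while edgeR called 0.188% of all genes. At an unadjusted p under 0.05 there were 3, against 2.25% of all genes, and without WT-S4 the number called was 1. In the interaction both called 0, while edgeR called 0.595% of all genes. There 6 had an unadjusted p under 0.05, against 4.98% of all genes, and 6 were called without WT-S4. The median log2 fold change of the 102 was -0.02 in 3xTg and 0.01 in WT mice. Between 3xTg-S and WT-D, 9 were called as lower and 2, Wnt7a and Efnb2, as higher, against 3.43% and 2.26% of all genes, and the number was 4 without WT-D2 and 5 without WT-D1 or 3xTg-S3.

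Cells around the endothelium were followed by marker lists. Under vehicle, the 9 basement membrane genes had a median of -0.44, with 9 of 9 below 0. Of the 9, edgeR called 1 as lower, against 2.47% of all genes. It was Hspg2, which encodes perlecan (-0.65 ± 0.17, adjusted p = 0.098, lost without WT-D2, without the mice apart and with all 16 mice in one fit). DESeq2 called 2 of the 9, Hspg2 and Col4a1. The medians were -0.10 for 15 pericyte and smooth muscle genes, -0.72 for 9 fibroblast genes and 0.20 for 8 endfoot genes. Of these, edgeR called none, 3, 3 and 2 had an unadjusted p under 0.05, and DESeq2 called 0, 2 and 0. Of all genes, 12.6% had an unadjusted p under 0.05 in this comparison. Under the inhibitor the basement membrane median was 0.0051, edgeR called none of these 4 lists' genes, and 1, Rgs5 of the pericytes, had an unadjusted p under 0.05 and was called by DESeq2. Summed pericyte markers ranged from 234 to 266 CPM in WT-D, 208 to 229 CPM in 3xTg-D, 207 to 314 CPM in WT-S and 197 to 260 CPM in 3xTg-S. The summed level of the members ranged from 228 to 271, 197 to 247, 223 to 299 and 224 to 245 CPM in the same order. The part of cell number in these sums was not tested.

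Of the lists of other cells, red cell genes had 3 of 5 called as higher in 3xTg-S than in WT-S, against 1.79% of all genes. Their median was 1.28, but none of those 3 was called without the mice apart in marker sums, which include 3xTg-S1 and 3xTg-S2. Oligodendrocyte markers held 3 higher and 1 lower call of 10 under vehicle, against 2.44% and 2.47% of all genes. For the inhibitor in 3xTg mice they held 2 lower calls of 10, against 0.904% of all genes called in either direction. Under vehicle Mobp lost its call with all 16 mice in one fit and Olig2 without WT-D2 or WT-D3 and with the covariate, and in 3xTg mice Mag lost its call without 3xTg-D1 or 3xTg-S3 and without the mice apart. The choroid plexus gene Ttr was called as lower under vehicle (-4.89), lost without WT-D4 (-1.66) or any 1 of the 3xTg-D mice. Microglia, neuron and leukocyte markers held no call by edgeR in any comparison, with at most 0, 1 and 2 at an unadjusted p under 0.05 and 0, 0 and 1 called by DESeq2. Only 3 of the 10 leukocyte markers and 6 of the 10 choroid plexus markers were tested. For the inhibitor in WT mice, 2 of those 3 leukocyte genes had an unadjusted p under 0.05, against 2.25% of all genes. Summed leukocyte markers were 34.2 CPM in WT-D1 and at most 7.65 CPM in the other WT-D mice, against 6.06 to 7.88 CPM in WT-S. Itgal, the gene of the list with the smallest p, was at -1.86, and between -2.16 and -0.55 with each mouse left out. The part of these cells in the members' values was not tested.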

How the data were processed

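The deposited table holds raw counts of reads per gene for 16 hippocampus libraries, 4 per group, as whole numbers that were not normalised. Per the labels and the study's methods, the authors trimmed single-end reads with Trimmomatic 0.35, aligned them with STAR 2.5.1b to GRCm38 with Gencode M23, and counted reads on exons. The library kit used molecular identifiers, but how they and the strand were handled in counting is not given in the sources used here. A further allele of the 3xTg mice is not reported here. The 4 summary lines of the table, 24.0% to 27.8% of reads, were left out of library sizes. Mice of a group differed by more than sampling noise in all 24 pairs (chi-square per degree of freedom 3.64 to 42.8), so none was counted as a duplicate.

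Genes were kept by edgeR's filterByExpr (minimum count 10, minimum total 15) and tested with edgeR 4.0.16 (R 4.3.3, TMM, quasi-likelihood test) in 5 pairwise comparisons and 1 interaction. The call at an unadjusted p of 0.01 follows the study's methods. Alternatives were DESeq2 1.42.0, other size factors, no filter, a fit of all mice, a replicate block and leaving out each mouse. The scripts were tested on simulated data. Marker sums over 3 times the median set mice apart. The members, lists and tests were chosen with earlier results of these data known. All members are named. Of the called genes of each list and, for a list with no call, its gene with the smallest p, only some are named here.

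Same-numbered mice correlated above 0.1 in every pair for the inhibitor in WT mice (0.11 to 0.34), where the replicate block changed no call of a member, and in no other comparison did every pair. Their mean correlation was 0.04 under vehicle, 0.24 under the inhibitor, 0.21 for the inhibitor in 3xTg and 0.18 for 3xTg-S against WT-D. For other numbers it was -0.01, -0.08, -0.07 and -0.06 in the same order. Elsewhere the block added member calls, as given below. Whether mice of a number shared a batch was not tested. The number pairs no mice by label.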

Additional observations from a re-analysis of the deposited data

Results flagged for a closer look

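Of 40 groups of 4 mice examined for the 10 members, 1 held a mouse far from the others: Cdh5 in WT-S2, at 6.26 CPM, lay apart from the other 3 mice of WT-S, with a gap of 0.833 of the group's range, just past Dixon's critical value for 4 samples. Chance alone flags about 1 in 20 groups. WT-S2 was the lowest mouse of its group for 8 of the 10 members.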

How the results depend on the processing

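Of 97 results for single genes, 49 were called and none of the 49 changed sign under any alternative. Rgcc was called as lower in 3xTg-S against WT-S and against WT-D under every alternative run. The fit with the share of reads outside genes as a covariate and the fit without the mice apart in marker sums were chosen after seeing the data.

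Members called under vehicle between genotypes, 0 of 10 as reported, were 1 by DESeq2 with either size factors (DEGES or median-ratio), 1 without the filter, 1 with the replicate block and 2 with the covariate. With the block 2 members were called for the inhibitor in 3xTg mice and 1 in the interaction, which was also 1 without the filter. Without the mice apart 2 were called for 3xTg-S against WT-D. Of the other endothelial genes, calls under vehicle were 4 with all 16 mice in one fit and 17 with the covariate. Under the inhibitor they were 4 without the mice apart, 11 with the block and 11 with the covariate. For the inhibitor in 3xTg mice they were 0 by DESeq2 with either size factors, in the fit of all mice, without the filter and with the covariate, and 3 without the mice apart or with the block. They were 2 without the filter for the inhibitor in WT mice, 7 in the fit of all mice for 3xTg-S against WT-D, and in the interaction 1 without the mice apart, 2 without the filter and 2 with the block. These counts are not set beside the share of all genes called under each setting. The causes were not tested.

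With 1 mouse left out, members called ranged from 0 to 1 under vehicle, in both inhibitor comparisons and in the interaction, and stayed at 1 elsewhere. Other endothelial genes called ranged from 4 to 11 under vehicle, 5 to 10 under the inhibitor, 0 to 4 for the inhibitor in 3xTg, 0 to 1 in WT, 4 to 11 for 3xTg-S against WT-D and 0 to 6 in the interaction. The members' median ranged from -0.22 to -0.11, -0.23 to -0.04, -0.02 to 0.16, -0.02 to 0.16, -0.13 to -0.02 and -0.02 to 0.11 in that order.

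Signs changed only for members that were not called. Without the mice apart, Mfsd2a was at -0.13 under vehicle, Flt1 at 0.020 between genotypes under the inhibitor, and Pecam1, Cdh5 and Mfsd2a at -0.045, -0.059 and -0.087 for the inhibitor in WT. Without the filter Ly6c1 was at -0.020 for the inhibitor in 3xTg. With the covariate Mfsd2a was at -0.022 under vehicle, and Slc2a1 and Sox17 were at 0.0087 and -0.032 for the inhibitor in 3xTg. With 1 mouse left out, under vehicle Cldn5 ranged from -0.24 to 0.076 and Pecam1 from -0.16 to 0.031. Between genotypes under the inhibitor Abcb1a ranged from -0.18 to 0.056, Flt1 from -0.12 to 0.046 and Mfsd2a from -0.045 to 0.23. For the inhibitor in 3xTg, Cldn5 ranged from -0.015 to 0.28, Slc2a1 from -0.085 to 0.044, Pecam1 from -0.031 to 0.15, Mfsd2a from -0.026 to 0.26, Sox17 from -0.064 to 0.10 and Ly6c1 from -0.087 to 0.15. For the inhibitor in WT, Abcb1a ranged from -0.063 to 0.17, Pecam1 from -0.016 to 0.17, Cdh5 from -0.046 to 0.15, Flt1 from -0.0097 to 0.15 and Ly6c1 from -0.021 to 0.31.

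The replicate block changed no other member call. Sox17 had the fewest reads of the members, 51 to 114 per mouse.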
